A study of Mus musculus with 12 samples.

Results

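Collagens, laminins and the genes of elastic fibres encode much of the extracellular matrix that holds the wall of the gut together. They were followed here in the mouse duodenum through 71 genes of 19938 measured. The genes were taken by name, not by their values: 44 collagen chains, 10 laminin chains, and 17 genes of elastin, fibrillin, the fibulins, the emilins, the lysyl oxidases and the latent TGF-beta binding proteins. A gene was included where a feature of the array was paired with its symbol alone, and where 3 of the genes (Loxl4, Col6a5 and Col6a6) had more than 1 such feature the brighter was used. Fbn1, Loxl2 and Col21a1 were not analysed here.

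The samples were segments of duodenum from mice of strain 129, taken at postnatal day 15 or day 30, a period that spans weaning. Wild type mice were compared with mice in which Onecut2, a homeodomain transcription factor gene, had been ablated, here called knockout mice. No agent was given to any group, and each of the 12 arrays carried the joined total RNA of 5 to 8 animals of both sexes, per the labels. Each of the 4 groups (wild type day 15, knockout day 15, wild type day 30 and knockout day 30) had 3 arrays from separate pools.

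Fibrillar collagens assemble into the rope-like fibrils of the submucosa and the lamina propria. Collagen IV and the laminins, which are trimers of an alpha, a beta and a gamma chain, build the basement membranes below the epithelium and around muscle cells and vessels. Elastin is laid down on microfibrils of fibrillin, with fibulins and emilins at their surface, and lysyl oxidases crosslink both collagen and elastin. In the gut, most of these genes are known to be expressed by fibroblasts, smooth muscle and endothelium, while a few laminin chains are made mainly by epithelium.

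Values are log2 expression values per gene, normalised across arrays by the authors, so 1 unit is a doubling. Because a probe's brightness also depends on its sequence, levels are compared between samples and never between genes. The medians of the 12 arrays lay between 7.20 and 7.25. Onecut2 itself had a value of at least 9.50 on every wild type array and at most 8.25 on every knockout array. Its difference, knockout minus wild type, was -1.50 at day 15 (limma, adjusted p = 2.0e-08) and -1.36 at day 30 (adjusted p = 8.8e-08), so the arrays matched their genotype labels. Over the 12 arrays, 47 of the 71 matrix genes had a mean above the median of all genes and 24 had a mean below it. Throughout, "fell" and "rose" are used of genes with a Benjamini-Hochberg adjusted p under 0.05 over all 19938 genes in limma. Fewer cells of a type and less RNA per cell cannot be told apart in such tissue samples.

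Between day 15 and day 30 the wild type duodenum lost signal for a large share of these genes. Of the 71, 37 fell, 1 rose and 33 did not pass the test. Over all genes tested, 29.3% passed, 17% as lower and 12.3% as higher, whereas 52.1% of the matrix genes were lower. The median change was -0.20 against 0.02 over all genes. All 3 arrays at day 30 lay below all 3 at day 15 for 39 of the 71, against 23.1% of all genes. The falls were concentrated among the brighter genes: 32 of the 47 above the median fell, or 68.1%, where 24.4% of all genes above the median did. Of the 24 below it, 5 fell, or 20.8%, against 9.62% of all genes there.

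**Figure D1:**
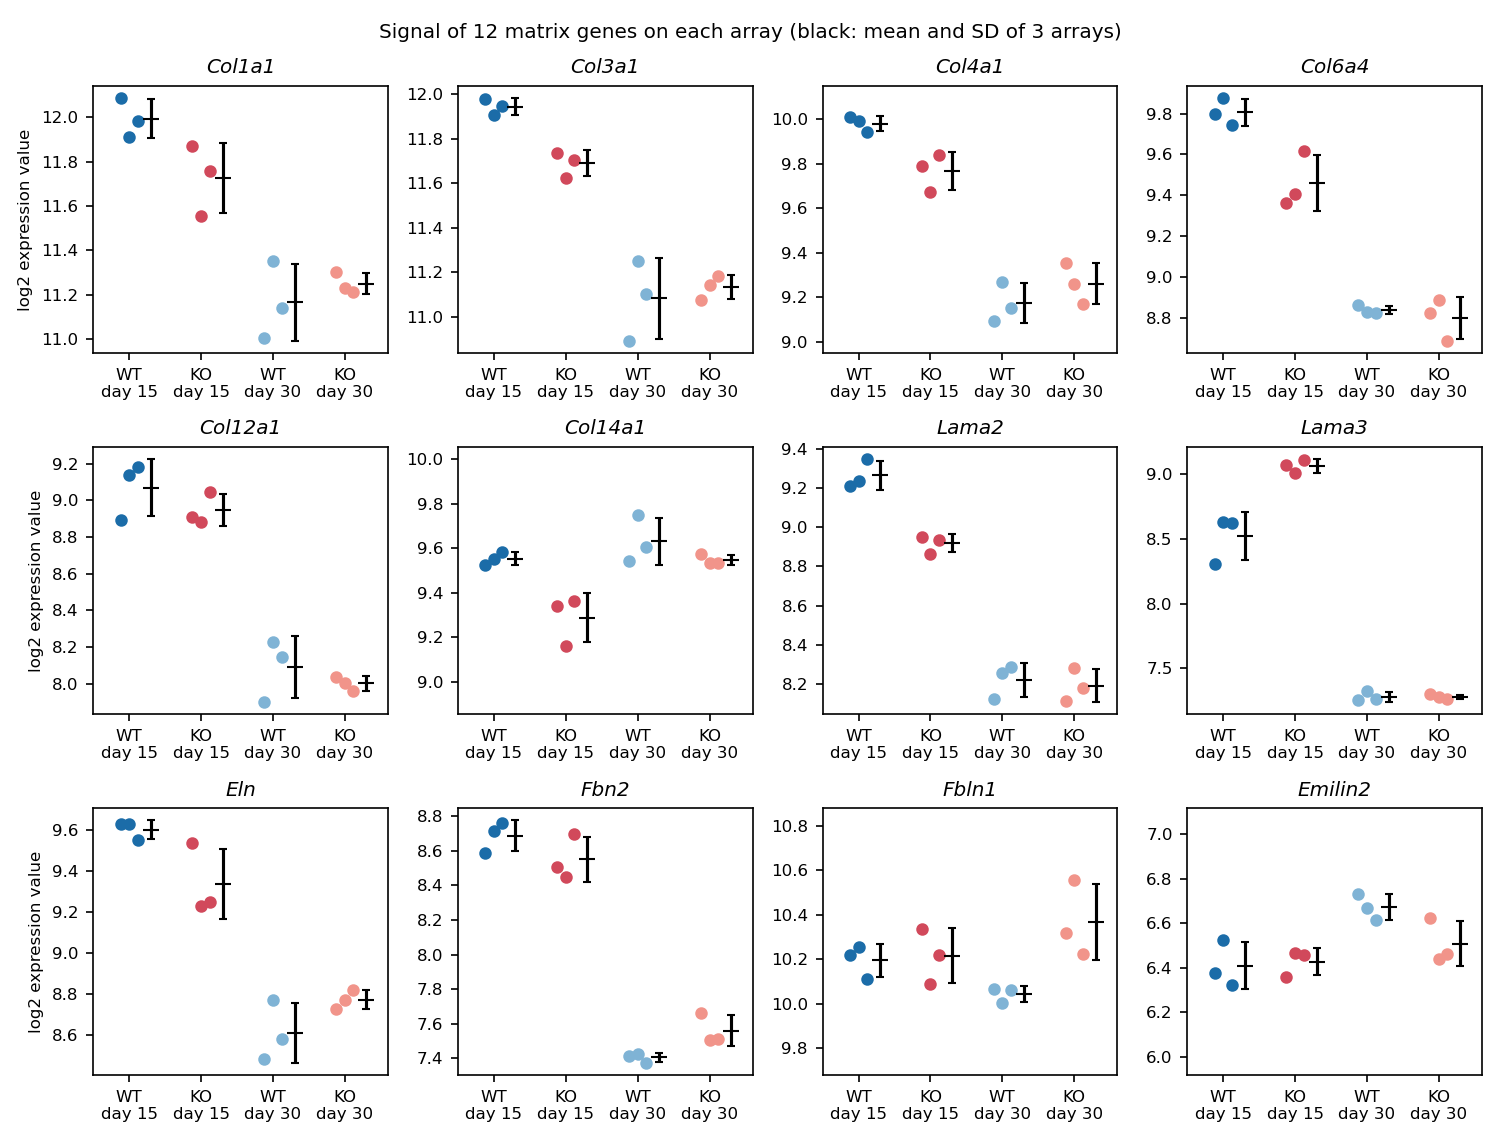
Log2 expression value of 12 matrix genes on each of the 12 arrays, by genotype and postnatal day, each panel with its own vertical axis. Each point is 1 array, and black marks give the mean and SD of 3 arrays. Lama3, Fbn2, Eln and the collagen genes other than Col14a1 are lower on all day 30 arrays than on all day 15 arrays of the same genotype, and Lama3 is the gene that is higher on all knockout arrays at day 15.

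Among the 11 fibrillar collagen genes, 5 that encode chains of collagens I, III and V fell in wild type: Col1a1, Col1a2, Col3a1, Col5a1 and Col5a2. Col3a1, the single chain of collagen III, a fibril of distensible tissues, had values of 11.98, 11.91 and 11.95 at day 15 and of 10.89, 11.25 and 11.10 at day 30. The groups did not overlap, and the array furthest from its group was the first at day 30. The change was -0.86 ± 0.08 (SE), 1.82-fold lower (limma, adjusted p = 3.5e-06). Col1a1, which with Col1a2 makes collagen I, the main fibril of connective tissue, went from 12.09, 11.91 and 11.98 to 11.01, 11.35 and 11.14, again without overlap. Its change was -0.83 ± 0.09 (SE), with an adjusted p of 2.2e-05 in limma, and that of Col1a2 was -0.76. Col5a2, a chain of the collagen V that nucleates these fibrils and the neighbour of Col3a1 on chromosome 1, changed by -0.86, and Col5a1 by -0.44. The other 6 are Col2a1, Col5a3 (a further collagen V chain), Col11a1, Col11a2, Col24a1 and Col27a1. They did not pass in either genotype. Col2a1 and the collagen XI chains are known chiefly from cartilage, and only 1 of 7 genes listed as cartilage and bone markers had a mean above the median of all genes.

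The promoter of Col1a2 is shown because CCAAT boxes are a known feature of collagen I promoters. The window runs from 250 bases before to 50 after the start of the gene in RefSeq on GRCm38.p6, at chr6:4505368-4505667 on the plus strand. Capitals mark its 2 matches to CCAAT on either strand (ATTGG on the reverse).
Col1a2: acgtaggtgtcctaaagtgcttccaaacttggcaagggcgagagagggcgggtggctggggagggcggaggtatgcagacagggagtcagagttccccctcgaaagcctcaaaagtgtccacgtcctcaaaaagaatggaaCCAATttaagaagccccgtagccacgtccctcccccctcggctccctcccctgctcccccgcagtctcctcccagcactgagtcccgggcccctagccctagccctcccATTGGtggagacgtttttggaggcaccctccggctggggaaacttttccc
CCAAT is a common string: it was in 37.4% of the 32851 windows of this length, in 37.5% of the 32 windows of matrix genes that fell in wild type, and in 24.1% of the 29 windows of the other matrix genes. Windows of 51 of the 71 genes were used, among them 26 genes that fell in wild type. The percentages for matrix genes do not cover the genes left out. GGGCGG, a GC box, was in 62.5% of the windows of genes that fell, in 51.7% of those of the other matrix genes and in 35.7% of all windows. TATAAA was in 3.12%, 13.8% and 13.6% of them in the same order. Both strands were searched, none of the 3 strings holds another, and a match is a description of the letters only.

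Collagen IV forms the network of every basement membrane, and its 6 genes lie in 3 head-to-head pairs. The pair on chromosome 8, Col4a1 and Col4a2, encodes the chains found in nearly all basement membranes. Col4a1 had values of 10.01, 9.99 and 9.94 at day 15 and of 9.09, 9.27 and 9.15 at day 30 in wild type. Col4a2 had 9.85, 9.80 and 9.76 at day 15 and 8.87, 9.03 and 9.0 at day 30. In both genes the 2 ages did not overlap, and the changes were alike in size: -0.81 ± 0.07 (SE) for Col4a1 (limma, adjusted p = 1.6e-06) and -0.84 ± 0.06 (SE) for Col4a2 (adjusted p = 3.9e-07). Their start windows are shown because they overlap on opposite strands, so that 1 stretch of DNA holds the starts of both genes. The window of Col4a1 is at chr8:11312777-11313076 on the minus strand and that of Col4a2 at chr8:11312555-11312854 on the plus strand, both from RefSeq on GRCm38.p6. Capitals mark the 78 bases that both windows contain, each read along its own gene.
Col4a1: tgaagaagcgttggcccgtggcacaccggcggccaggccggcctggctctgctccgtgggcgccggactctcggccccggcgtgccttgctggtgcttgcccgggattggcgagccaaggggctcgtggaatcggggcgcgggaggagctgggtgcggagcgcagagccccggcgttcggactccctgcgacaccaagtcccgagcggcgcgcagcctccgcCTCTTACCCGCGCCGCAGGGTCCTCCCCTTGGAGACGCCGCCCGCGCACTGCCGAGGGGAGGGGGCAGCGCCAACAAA
Col4a2: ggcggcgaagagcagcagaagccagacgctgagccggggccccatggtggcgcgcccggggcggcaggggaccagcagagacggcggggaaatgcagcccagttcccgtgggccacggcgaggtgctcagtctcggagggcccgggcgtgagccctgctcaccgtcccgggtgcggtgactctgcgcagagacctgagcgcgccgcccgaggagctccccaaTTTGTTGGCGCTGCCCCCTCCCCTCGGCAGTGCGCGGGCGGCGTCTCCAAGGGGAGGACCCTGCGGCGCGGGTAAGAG
The window of Col4a1 held 1 match to CCAAT and 1 to GGGCGG, and that of Col4a2 held 1 and 3.

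The other collagen IV pairs had smaller changes. Col4a5 and Col4a6, on the X chromosome, both fell in wild type, by 0.56 and 0.34, and Col4a6 was close to the threshold (limma, adjusted p = 0.042). Col4a3 and Col4a4, whose chains are best known from the kidney glomerulus, changed by 0.13 and -0.09 and did not pass. The short-chain collagens Col8a1, Col8a2 and Col10a1 did not pass either. Of the genes for collagens that carry an endostatin domain and sit at basement membranes, Col15a1 fell by 0.50 and Col18a1 by 0.53. Col7a1, of the anchoring fibrils of skin, is outside that class and did not pass.

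Collagen VI forms beaded filaments that link basement membranes to the fibrils around them. Of its 6 genes, 5 fell in wild type. Col6a1 and Col6a2, neighbours on chromosome 10, changed by -0.71 and -0.65, and Col6a3, which joins them in the classical trimer, by -0.82. Col6a4, Col6a5 and Col6a6 stand in a row on chromosome 9 and encode chains that can take the place of the Col6a3 chain. Their changes were unlike: Col6a4 had values of 9.80, 9.88 and 9.74 at day 15 and of 8.86, 8.83 and 8.82 at day 30, Col6a5 changed by -0.54, and Col6a6 by -0.04. The 2 ages of Col6a4 lay far apart, with a change of -0.97 ± 0.07 (SE), 1.96-fold lower (limma, adjusted p = 7.9e-07). The second feature of Col6a5 gave -0.99 in place of -0.54, so the size of its fall depends on the feature, and both features were lower at day 30.

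The fibril-associated collagens, which sit on the surface of fibrils, split. Of 9 genes only Col12a1 fell in wild type, from 8.89, 9.14 and 9.18 to 7.90, 8.23 and 8.14, with a change of -0.98 ± 0.09 (SE; limma, adjusted p = 4.7e-06). Its groups did not overlap in either genotype. Col14a1, the closest relative of Col12a1, had wild type values of 9.53, 9.55 and 9.58 at day 15 and of 9.54, 9.75 and 9.61 at day 30. These overlapped, and the change of 0.08 did not pass (adjusted p = 0.41). Col9a1, Col9a2, Col9a3, Col16a1, Col19a1, Col20a1 and Col22a1 did not pass in either genotype. None of the 4 transmembrane collagens did either (Col13a1, Col17a1, Col23a1 and Col25a1), nor Col26a1 and Col28a1.

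Laminin chains were among the genes with the largest shifts. Of the 10, 7 fell in wild type, with a median change of -0.78 over the 10. Lama2, whose chain joins muscle cells to their basement membrane, had values of 9.21, 9.24 and 9.35 at day 15 and of 8.12, 8.26 and 8.29 at day 30. This gap between the ages was -1.04 ± 0.07 (SE), 2.06-fold (limma, adjusted p = 1.4e-07). Lama4, of vessel basement membranes, changed by -1.0, and Lama5, the alpha chain of mature epithelial and vascular basement membranes, by -0.66. Lamb1 and Lamc1, which pair with most alpha chains, changed by -0.89 and -0.97, and Lamb2 by -0.57.

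Lama3 is the alpha chain of the laminin that anchors epithelial cells through hemidesmosomes, and the chain of Lamb3 is one of its partners. In wild type it had values of 8.31, 8.63 and 8.62 at day 15 and of 7.25, 7.32 and 7.26 at day 30. The first day 15 array was the lowest of its group, and the day 30 arrays agreed closely. The change was -1.24 ± 0.08 (SE), 2.36-fold lower (limma, adjusted p = 1.4e-07). Its partner Lamb3 did not follow: its changes were -0.12 (wild type) and -0.19 (knockout), and neither passed (adjusted p = 0.40 and 0.15). Lama1 and Lamc3 did not pass in either genotype.

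Elastic fibre genes fell widely as well. Fbn2, a fibrillin of growing tissue, had values of 8.59, 8.71 and 8.76 at day 15 and of 7.42, 7.43 and 7.37 at day 30 in wild type. It had the largest fall in wild type of the 71 genes, -1.28 ± 0.07 (SE), 2.43-fold (limma, adjusted p = 7.7e-08). Eln, which encodes elastin, the core of the fibre, went from 9.63, 9.63 and 9.55 to 8.48, 8.77 and 8.58. Its ages did not overlap, and the change was -0.99 ± 0.09 (SE; adjusted p = 2.9e-06). Lox, the lysyl oxidase that crosslinks elastin and collagen, changed by -0.85 ± 0.12 (SE), Loxl1 by -0.51 and Loxl3 by -0.20, while Loxl4 did not pass. Fbln5, needed to place elastin on microfibrils, changed by -0.47, Fbln2 by -0.35 and Fbln7 by -0.19. All 4 genes named as latent TGF-beta binding proteins fell: Ltbp4 by 0.78, Ltbp1 by 0.47, Ltbp3 by 0.34 and Ltbp2 by 0.27. Emilin1, an elastic fibre glycoprotein, fell by 0.45.

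Emilin2 was the gene of the 71 that rose in wild type. Its values were 6.38, 6.53 and 6.32 at day 15 and 6.73, 6.67 and 6.62 at day 30, a change of 0.26 ± 0.07 (SE) whose arrays did not overlap (limma, adjusted p = 0.012). Emilin3 did not pass. Fbln1, a fibulin of basement membranes and elastic fibres, had wild type values of 10.22, 10.26 and 10.11 at day 15 and a mean of 10.04 ± 0.04 (SD, n = 3) at day 30. Though its arrays were all lower at day 30, the change of -0.15 did not pass (adjusted p = 0.22).

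Of the 38 calls in wild type, 33 were retained in every setting in which they were tested, and the other 5 were lost without certain single arrays. Adjusted p ranged from 0.0054 to 0.117 over the settings for Col4a6, from 0.019 to 0.139 for Fbln7, from 0.030 to 0.173 for Loxl3, from 0.011 to 0.160 for Ltbp2 and from 0.0059 to 0.060 for Emilin2. For Emilin2 the call was lost without the third wild type array at day 15 (0.060) or the first at day 30 (0.0504). Col4a6 was lost without the first or the third array at day 15 (0.105 and 0.114) or the first, second or the third at day 30 (0.0637, 0.117 and 0.0857). Fbln7 was lost without any 1 array at day 15 (0.0796, 0.0646 and 0.0741) or the second at day 30 (0.139). Loxl3 was lost without the first or second at day 15 (0.143 and 0.105) or the first or the third at day 30 (0.122 and 0.136). Ltbp2 was lost without any 1 at day 15 (0.106, 0.0811 and 0.0627) or the second or the third at day 30 (0.160 and 0.0663), and its change was -0.16 without that second array.

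In the knockout duodenum, 33 of the 71 genes fell with age, 1 rose and 37 did not pass. Over all genes 31% passed in this comparison, 17.2% as lower and 13.8% as higher, and 46.5% of the matrix genes were lower. The median change was -0.13 against 0.03 over all genes. Among the 47 brighter genes, 31 fell (66.0%, against 26.1% of all genes above the median), and among the 24 dimmer ones 2 did (8.33% against 8.3%). All 3 arrays at day 30 lay below all 3 at day 15 for 33 of the 71, against 22% of all genes. The wild type and the knockout comparison use different arrays, and all 33 genes lower in knockout were also lower in wild type. They are 89.2% of the wild type falls and 100% of the knockout falls. Over all genes, 2636 fell in both, which is 77.7% and 77.0% of the falls in each. Col4a6, Fbln7, Loxl3 and Ltbp2 were called in wild type and not in knockout, which is not a test of a difference between the genotypes.

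The order of the largest falls changed between genotypes. Lama3 led in knockout, from 9.07, 9.01 and 9.11 to 7.30, 7.27 and 7.26, with a change of -1.79 ± 0.08 (SE), 3.45-fold (limma, adjusted p = 6.1e-09). Fbn2 followed, from 8.51, 8.45 and 8.70 to 7.67, 7.51 and 7.51, a change of -0.99 (adjusted p = 6.1e-07). Col12a1 went from 8.91, 8.88 and 9.05 to 8.04, 8.00 and 7.96, a change of -0.94 that was near its wild type value. Lama4, Lamc1, Lama2 and Lamb1 changed by -0.75, -0.75, -0.73 and -0.71, and Col6a4 by -0.66. Col3a1 had knockout values of 11.74, 11.62 and 11.71 at day 15 and of 11.07, 11.14 and 11.18 at day 30, a change of -0.56 (adjusted p = 1.4e-04). Eln changed by -0.56, Col4a2 by -0.54, Col4a1 by -0.51 and Col1a1 by -0.48.

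Col14a1 was the gene that rose in knockout. Its values were 9.34, 9.16 and 9.36 at day 15 and 9.57, 9.54 and 9.53 at day 30, a change of 0.26 ± 0.07 (SE; limma, adjusted p = 0.010). The day 30 values lay close to those of wild type, and the second day 15 array was the lowest. Without that array the call was lost (adjusted p = 0.0502, in a range of 0.0032 to 0.0502 over the settings). Calls were also lost for Lox without the first knockout array at day 15 (0.0774) or the second or the third at day 30 (0.0637 and 0.0584), in a range of 0.011 to 0.0774. For Col4a5 they were lost without the second at day 15 (0.0504) or the first or second at day 30 (0.0703 and 0.0560), in a range of 0.0047 to 0.0703. For Ltbp3 they were lost without the second at day 15 (0.0512) or the second at day 30 (0.0611), in a range of 0.0080 to 0.0750.

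**Figure D2:**
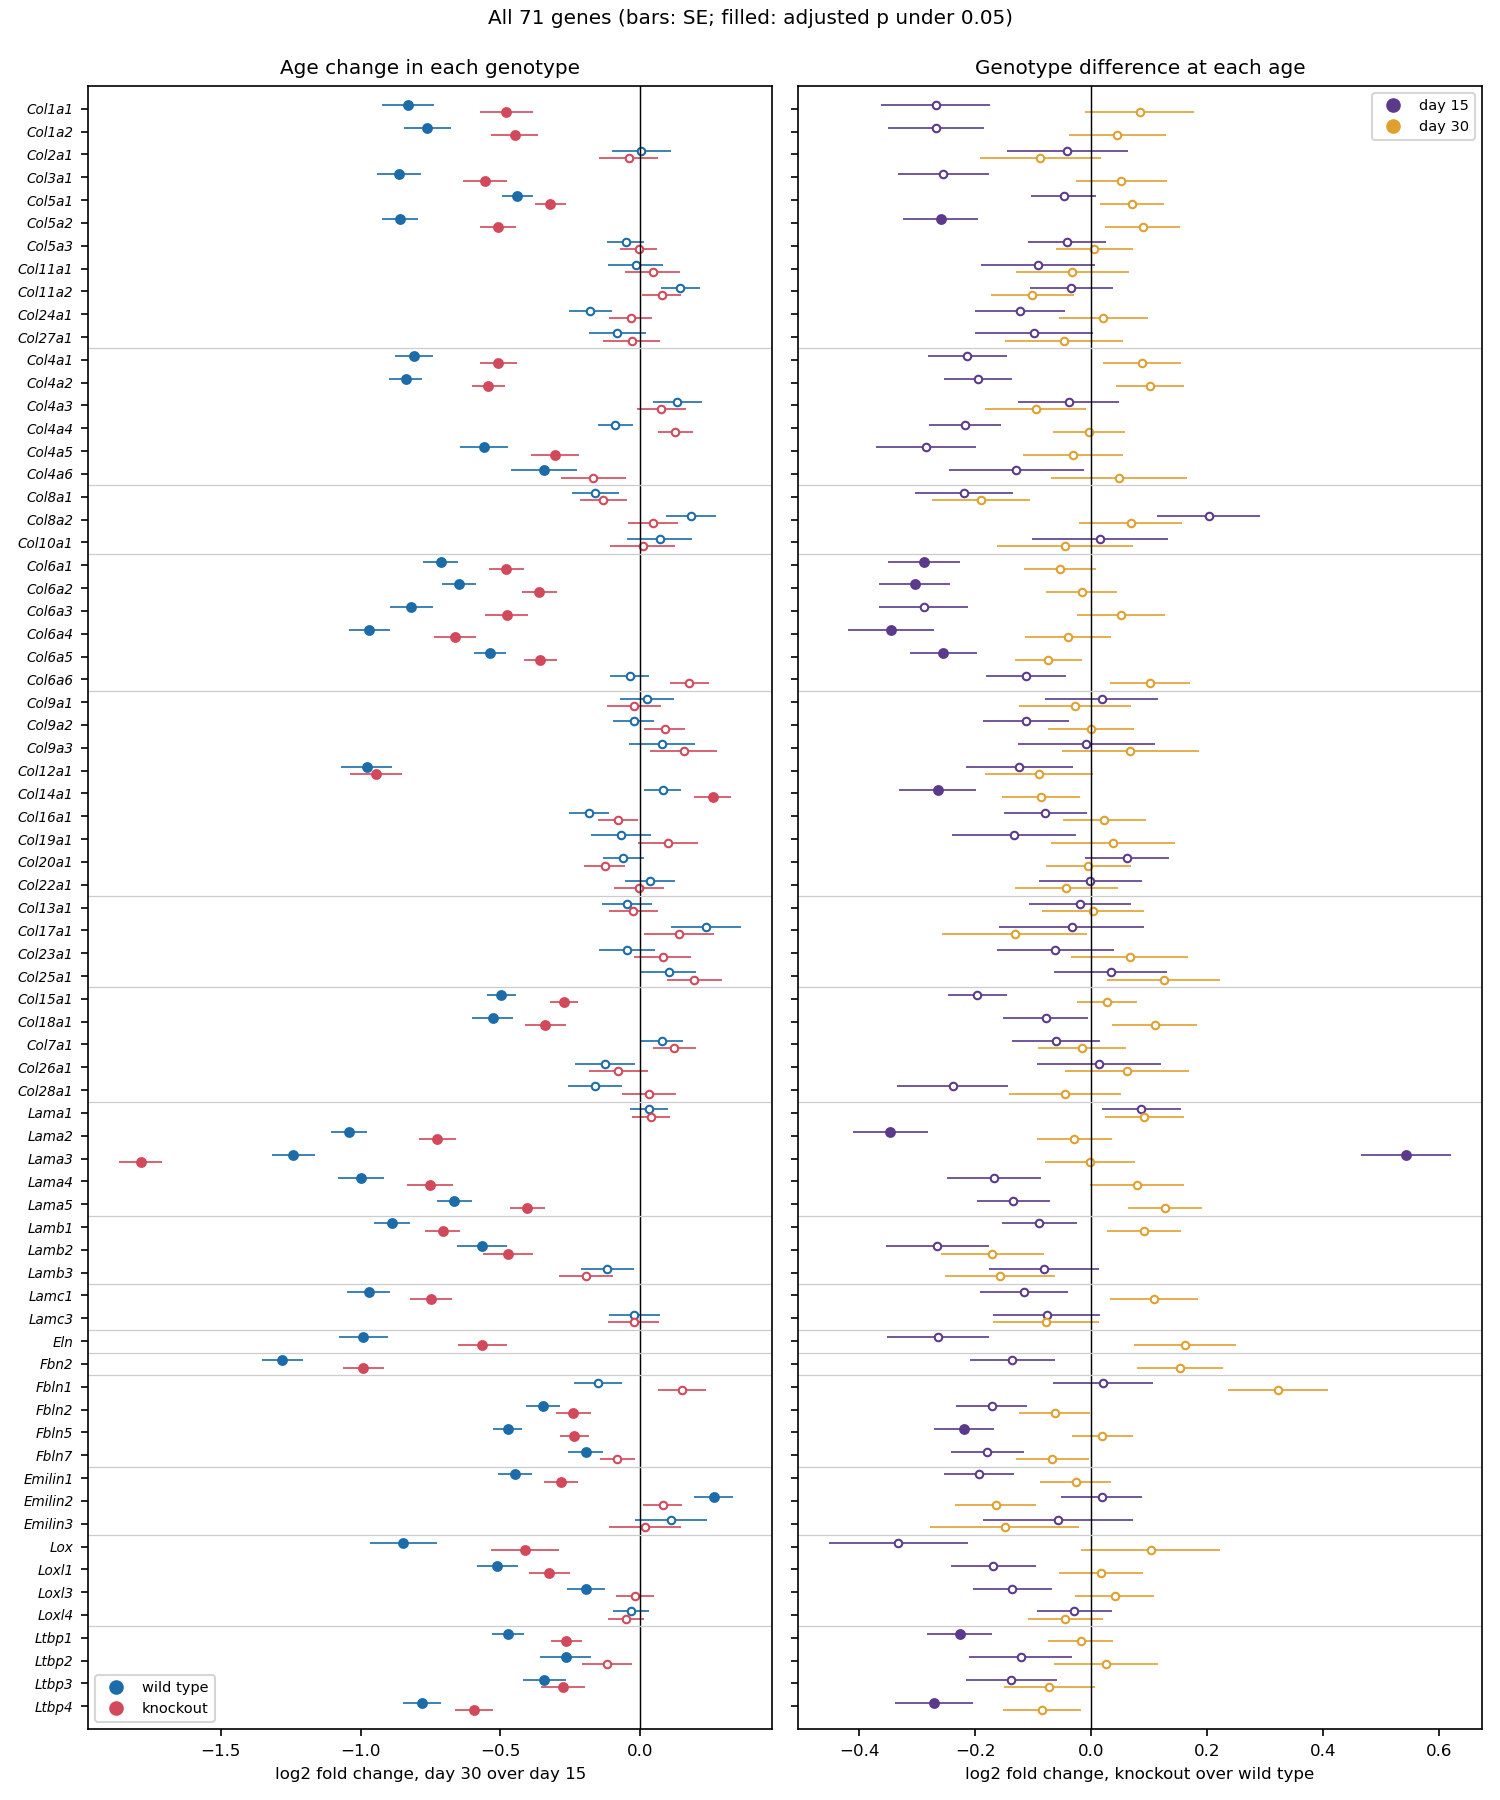
Log2 difference of each of the 71 matrix genes, ordered by role. The left panel shows day 30 minus day 15 in each genotype and the right panel knockout minus wild type at each day, with bars of 1 SE and filled points where the adjusted p was under 0.05. Most filled points on the left are below 0, and on the right Lama3 stands apart at 0.54 on day 15 while no point at day 30 is filled.

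Of the 33 genes that fell in both genotypes, 32 had the smaller change in knockout, Lama3 being the exception. Over all genes, 1476 of the 2636 that fell in both had the smaller change in knockout. No single gene of the 71 passed the test of the difference between the age changes, while 0.456% of all genes passed it. At an unadjusted p under 0.05 in limma there were 23 of the 71, against 1764 of 19938. The median difference, knockout change minus wild type change, was 0.15 over the 71 genes, against 0.01 over all genes, and it was 0.10 without the third knockout array at day 30. These genes share the same 12 arrays, so the count of 32 does not stand for that many separate observations.

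Lama3 came nearest to a called difference between the genotypes' age changes, with -0.54 ± 0.11 (SE; limma, adjusted p = 0.055). Its adjusted p ranged from 0.024 to 0.144 over the settings, and it was 0.0331 without the first wild type array at day 15, the lowest of its group. Next came Col5a2 with a difference of 0.35 (adjusted p = 0.17), Col4a2 with 0.30 (0.21), Lama2 with 0.32 (0.23) and Eln with 0.43 (0.24). Lox had a difference of 0.44 but a larger error (adjusted p = 0.45).

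At day 15 the knockout duodenum had lower values than wild type for many of these genes, by small amounts. Of the 71, 10 were lower and 1 was higher by the test, where 3.83% of all genes passed, 2.03% as lower and 1.81% as higher. All 11 were among the 47 brighter genes, and 6.29% of all genes above the median passed. The median difference was -0.12 against -0.01 over all genes. A difference below 0 was found for 61 of the 71, against 10778 of 19938 genes. The 71 genes share the same arrays, so the count of 61 does not stand for that many separate observations. All 3 knockout arrays lay below all 3 wild type arrays for 32 genes, against 12.2% of all genes. This comparison and the age comparisons share the day 15 arrays, so a value that is low in knockout at day 15 also makes its age change there smaller.

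Collagen VI held the most calls at day 15, with 4 of its 6 genes lower. Col6a2 had values of 9.81, 9.79 and 9.79 in wild type and of 9.46, 9.41 and 9.60 in knockout. The genotypes did not overlap, and the difference was -0.30 ± 0.06 (SE; limma, adjusted p = 0.016). Col6a4 had 9.80, 9.88 and 9.74 in wild type and 9.36, 9.41 and 9.62 in knockout, a difference of -0.34 (adjusted p = 0.022). Col6a1 differed by -0.29 (0.023) and Col6a5 by -0.25 (0.029), while Col6a3 differed by -0.29 and did not pass (0.059).

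Lama2 was lower in knockout at day 15 too, with 8.95, 8.87 and 8.94 against 9.21, 9.24 and 9.35 in wild type. The difference of -0.35 ± 0.07 (SE; limma, adjusted p = 0.011) was the largest fall of the 71 genes in this comparison. The other genes called lower were Fbln5 (-0.22, adjusted p = 0.037), Col5a2 (-0.26, 0.044), Ltbp1 (-0.23, 0.044), Ltbp4 (-0.27, 0.045) and Col14a1 (-0.26, 0.048). Col1a1, Col3a1, Col4a1 and Eln differed by -0.27, -0.25, -0.21 and -0.26, and none of them passed (adjusted p = 0.17, 0.11, 0.12 and 0.14).

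Lama3 went the other way. Its knockout values at day 15, 9.07, 9.01 and 9.11, all lay above the wild type values of 8.31, 8.63 and 8.62. The difference was 0.54 ± 0.08 (SE), 1.46-fold higher (limma, adjusted p = 0.0016). By day 30 wild type stood at 7.25, 7.32 and 7.26 and knockout at 7.30, 7.27 and 7.26, which overlap.

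Apart from Lama3, each call at day 15 was lost without at least 1 single array, while the differences stayed below 0. Over the settings the difference lay between -0.37 and -0.30 for Lama2, between -0.36 and -0.27 for Col6a2 and between -0.42 and -0.29 for Col6a4. The count of 11 became 2, 5 and 2 without the first, second or the third wild type array, and 6, 1 and 6 without the first, second or the third knockout array. Lama3 was called in each of these, with adjusted p between 5.9e-04 and 0.020 over all settings. Lama2 was lost without the third wild type array (0.0541) or the second knockout array (0.0612), in a range of 0.0037 to 0.0612. With the 6 arrays of day 15 alone in the fit, 4 genes were called.

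At day 30 none of the 71 genes passed between genotypes in limma, where 1.98% of all genes did. At an unadjusted p under 0.05 there were 3 of the 71, against 2238 of 19938. The median difference was below 0.01 in size, and 36 of the 71 genes had a difference below 0, against 10326 of 19938. Fbln1 came nearest, with knockout values of 10.32, 10.56 and 10.23 against at most 10.07 in wild type. Its arrays did not overlap, and the difference was 0.32 ± 0.09 (SE; adjusted p = 0.087). Without the third knockout array its adjusted p was 0.0488, in a range of 0.036 to 0.260 over the settings. Fbn2 was also higher on all knockout arrays, 7.67, 7.51 and 7.51 against 7.42, 7.43 and 7.37, with a difference of 0.15 (adjusted p = 0.48). Lamb2 was lower on all of them, 8.42, 8.49 and 8.45 against 8.73, 8.59 and 8.56, with a difference of -0.17 (adjusted p = 0.53). Of all genes, 7.95% were higher and 7.49% lower on all knockout arrays.

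Averaged over both ages, the genotype difference passed for 4 of the 71 genes in limma, where 5.34% of all genes passed, 2.48% as higher and 2.86% as lower. Lama3 was higher by 0.27, and Lama2, Col6a1 and Col6a5 differed by -0.19, -0.17 and -0.16. The average hides the ages, since none of these 4 passed at day 30. The count of 4 became 2, 3 and 1 without each wild type array at day 15 in turn, 4, 1 and 4 without each knockout array at day 15, 7, 1 and 2 without each wild type array at day 30, and 2, 2 and 2 without each knockout array at day 30.

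The genes that process and surround these proteins were examined as lists. Their counts with age stand against 17% of all genes lower and 12.3% higher in wild type, and 17.2% lower and 13.8% higher in knockout. At day 15 they stand against 2.03% of all genes lower and 1.81% higher in knockout. Of 23 genes of collagen maturation, 14 fell with age in wild type and 10 in knockout, and none rose. Plod2, a lysyl hydroxylase that prepares crosslinks, changed by -1.22 in wild type, Bmp1, which cleaves procollagen, by -0.88, and Serpinh1, the collagen chaperone, by -0.65. Between genotypes at day 15, Plod2 alone in that list was called, lower in knockout with a difference of -0.39 (limma, adjusted p = 0.046), and 1 of 23 is near the 3.83% of all genes called. Of 14 partners in basement membranes, 10 fell and 1 rose in wild type, and 9 fell in knockout. Nid1 and Nid2, which link laminin to collagen IV, changed by -1.07 and -1.17 in wild type, and Pxdn, which crosslinks collagen IV, by -1.15. At day 15 Sparc and Pxdn were lower in knockout, with differences of -0.25 and -0.29, and Agrn, which encodes agrin, was higher by 0.26.

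Of 12 partners of microfibrils and elastic fibres, 10 fell in each genotype, and 1 rose in knockout. Hmcn1, a hemicentin, changed by -1.30 and Mfap4 by -0.85 in wild type, and no gene of this list passed between genotypes at day 15 or day 30. Of 17 small proteoglycans and matricellular genes, 15 fell in wild type, and in knockout 12 fell and 1 rose. Postn, which encodes periostin, changed by -1.76 in wild type, Aspn by -1.75, Thbs2 by -1.13 and Ogn by -1.10. Prelp was the gene of that list called between genotypes at day 15, lower in knockout with a difference of -0.39, and 1 of 17 is likewise near that share.

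Of 15 matrix proteases and their inhibitors, 8 fell and 1 rose in wild type, and 6 fell and 1 rose in knockout. Adamts1 changed by -1.03 in wild type, Timp2 by -0.76, Timp3 by -0.75 and Mmp2 by -0.63. Mmp14, a membrane-bound collagenase, was lower in knockout at both ages, with differences of -0.46 at day 15 (limma, adjusted p = 0.0010) and -0.43 at day 30 (adjusted p = 0.0029), unlike any of the 71 matrix genes. Mmp2 and Timp2 were lower in knockout at day 15 as well, with differences of -0.25 and -0.27. The 16 receptors for collagen and laminin were divided: 6 fell and 4 rose in wild type, and 6 fell and 2 rose in knockout. Ddr2 and Itga1, which bind collagen, changed by -0.79 and -0.67 in wild type, and Lgals3 by 0.55. At day 15, 3 of the 16 were called between genotypes, all lower in knockout: Ddr2 (-0.32), Itga1 (-0.31) and Lgals3 (-0.26).

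Markers of smooth muscle and endothelium fell along with the matrix genes, and fibroblast markers did so in part. All 12 smooth muscle markers, each above the median of all genes, fell with age in both genotypes, with median changes of -0.64 in wild type and -0.47 in knockout. Their mean ranged over the arrays from 10.44 to 10.54 in wild type and from 10.17 to 10.34 in knockout at day 15, and from 9.75 to 9.88 and from 9.75 to 9.78 at day 30. At day 15 all 12 were lower on all 3 knockout arrays, against 12.2% of all genes, and 2 of them by the test (Myh11 at -0.31 and Tpm2 at -0.30), against 2.03%. All 10 endothelial markers fell with age in both genotypes and none passed at day 15 between genotypes, with means of 8.71 to 8.83 in wild type and of 8.70 to 8.73 in knockout. Of 11 fibroblast markers, 6 fell and 1 rose in wild type, and 5 fell and 1 rose in knockout, with means of 8.22 to 8.26 and of 8.14 to 8.21 at day 15 and of 7.95 to 7.98 and of 8.03 to 8.05 at day 30. Pdgfra, a receptor of fibroblasts, changed by -0.98 in wild type, the largest fall of the 11, while the highest change was 1.40. In knockout the changes ran from -0.84 to 1.56. At day 30, 1 of the 11 was higher in knockout, by 0.71 (limma, adjusted p = 0.022). Of all genes, 1.98% passed at day 30. The knockout mean at day 30 is raised by that 1 marker, and the median difference of the 11 was 0.01. At day 15, 10 of the 11 had a difference below 0, against 10778 of 19938 genes. Their median difference was -0.10 and the highest was 0.55.

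Epithelial and leukocyte markers rose more often than they fell over the same interval. Of 12 epithelial markers, all above the median of all genes, 8 rose and 1 fell in wild type and 6 rose and 2 fell in knockout, and their wild type mean went from between 11.75 and 11.77 to between 11.94 and 11.97. Of 9 leukocyte markers, 6 rose in wild type, and 7 rose and 1 fell in knockout, and their mean went from between 7.21 and 7.50 to between 9.03 and 9.04 in wild type. Acinar pancreas markers, all 10 above the median of all genes, had a median difference of -0.43 between knockout and wild type at day 15, with 8 of 10 lower on all knockout arrays (12.2% of all genes) and none called. None of 7 mesothelial and 1 of 7 glial markers had a mean above the median of all genes. Of the glial markers, 3 fell and 1 rose with age in wild type, and 2 fell in knockout. At day 15, 1 of the 7 was lower in knockout, by 1.70 (limma, adjusted p = 2.1e-06), against 2.03% of all genes. The glial mean at day 15 was 7.53 to 7.56 in wild type and 7.17 to 7.30 in knockout. That mean is pulled down in knockout by the 1 marker lower by 1.70, and the median difference of the 7 was -0.12. The part of these cell types in the falls of the matrix genes was not tested.

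**Figure D3:**
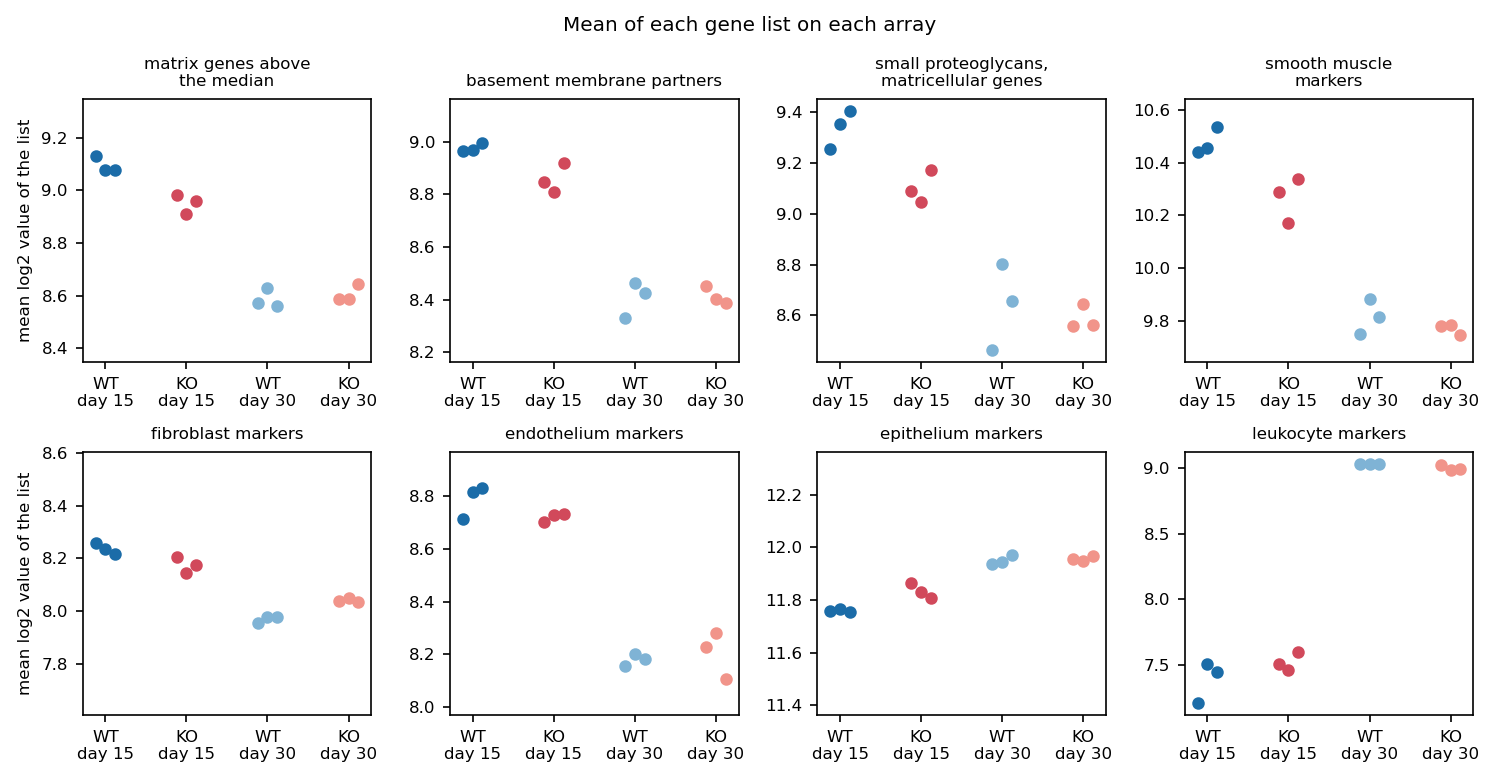
Mean log2 value of 8 gene lists on each of the 12 arrays, by genotype and postnatal day, each panel with its own vertical axis and each point 1 array. The matrix genes above the median, at 9.08 to 9.13 on the wild type arrays and 8.91 to 8.98 on the knockout arrays of day 15 and at 8.56 to 8.64 on all arrays of day 30, are shown beside smooth muscle, whose day 15 arrays also all lie above its day 30 arrays, and leukocyte markers, which rise.

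The genes that fell and those that did not also differed in how the arrays of a group were ordered. For the 32 matrix genes that passed with age in neither genotype, the third knockout array at day 30 was the highest of its group in 29, and the first wild type array was the highest in 26 at day 15 and in 26 at day 30. Their mean was 7.61 on that knockout array, against 7.46 and 7.41 on the others of its group. For the 33 genes that fell in both genotypes the same 3 arrays were highest in 13, 18 and 5. These 33 had an order of their own at day 30, where the second wild type array was the highest of its group in 26. Their mean was 8.80 on that array, against 8.64 and 8.69 on the others of its group. No such counts were made over all genes. The 33 genes were also brighter than the 32, so brightness and falling with age cannot be told apart here. The source of these orders was not tested.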

How the data were processed

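The deposited values are on the log2 scale, 1 for each feature of a mouse gene array, produced by RMA (Affymetrix Expression Console, version 1.1) per the submitters' processing notes. RMA subtracts background, gives all arrays the same quantiles and then combines probes. It can therefore take out a shift common to most genes, and folds of very dim and very bright genes are understated. No file states the log base, which was inferred as 2 from that method. The build used for the probe annotation is not given in these sources. The table held 35557 features, of which 21789 had 1 gene symbol, 1621 had several and 12147 had none listed. Features with 1 symbol were used, the one with the highest mean for each gene, which gave 19938 genes. All 71 matrix genes were matched by Entrez identifier to RefSeq names of GRCm38.p6.

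The 4 group means were estimated from all 12 arrays together, which left 8 residual degrees of freedom, with limma 3.58.1 in R 4.3.3, with eBayes at default settings. P-values were adjusted by Benjamini-Hochberg over all genes and called at 0.05. Replicates are separate pools of mice, and the spread between pools is smaller than between single mice. The number of arrays limits the precision. No 2 arrays correlated above 0.9953. The code was tested on simulated data.

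The matrix genes and the gene lists were chosen with earlier results of these data known. Any matrix gene may be named. Full statistics go to the up to 8 called matrix genes with the largest change in a comparison and to those whose age change differed most between genotypes, and each list may give up to 4 genes with the smallest p. Col14a1, Emilin2, Fbln1 and Lamb3 were given fuller values after these had been seen. The replicate numbers were checked for pairing, and in no comparison did every array correlate best with its own number. In the wild type age comparison, deviations from the group means correlated at 0.29, 0.06 and 0.17 between same-numbered arrays. Alternatives were an intensity trend, robust eBayes, 2 filters on dim genes, the mean of all features, centring on the median or the 75th percentile, array weights, own arrays only, a replicate block, a threshold of 0.01 and leaving out each array.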

Additional observations from a re-analysis of the deposited data

How the results depend on the processing

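No called matrix gene changed direction under any alternative that tested it. The counts with age stayed within 1.5 times: 33 to 40 in wild type (34 to 37 without 1 array) and 30 to 35 in knockout (31 to 34 without 1 array). Of the calls, 33 of 38 and 30 of 34 were retained in all settings that tested them. At day 15 between genotypes, 11 calls became 14 with an intensity trend, 14 and 16 with the filters on dim genes, 15 with array weights, 8 and 10 with the centrings, 4 with only the arrays compared, 7 with a replicate block, 1 at an adjusted p of 0.01 and 1 to 6 without 1 array. Lama3 was the call kept throughout. At day 30, 0 became 1 with an intensity trend, 1 without genes whose highest group mean was below the median and 1 with array weights (Fbln1 each time), and 0 to 1 without 1 array. For the difference between age changes, 0 became 1 (Lama3 each time) with an intensity trend, with either filter on dim genes, with either centring and with array weights, and 0 to 1 without 1 array. Averaged over ages, 4 became 9 with an intensity trend, 10 with the filter at the 30th percentile, 10 with the filter on group means, 11 with array weights, 2 with a replicate block, 0 at 0.01 and 1 to 7 without 1 array. The causes were not tested. With the replicate block, 35 and 34 genes were called with age, 0 at day 30 and 0 for the difference between age changes. Correlations of same-numbered arrays ran from -0.25 to 0.36, and in no comparison did every array correlate best with its own number. In the wild type age comparison every such correlation was above 0.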
